A study of Mus musculus with 6 samples.

Results

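Genes for the conjugation and removal of ubiquitin were taken by name from a RefSeq gene table on GRCm38.p6, the assembly behind mm10. A member is a protein-coding mouse gene whose symbol begins with Ube2, Usp, Fbxo, Fbxl or Trim followed by a number or a letter. This gave 218 of 21887 nuclear protein-coding genes, made up of 37 Ube2, 57 Usp, 36 Fbxo, 18 Fbxl and 70 Trim genes. The label covers most but not all of what the rule collects, since it also takes in relatives by name such as Uspl1, Triml1 and Triml2. A peak belonged to a gene when its midpoint lay within the gene's span, which runs from the gene's outermost start to its outermost end and includes introns. By this rule 11 members held 16 of the 2197 deposited peaks, and 207 members held none.

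The peaks come from Spy3-AGO2 pull-down in cortex of mice at postnatal day 14. AGO2 is the Argonaute protein that carries a microRNA (miRNA) to its target RNA, and the Spy3 tag couples it to SpyCatcher3 on a resin. A conditional Spy3-AGO2 allele was combined with VGLUT2-Cre, so the tag is limited to cells with a history of that driver, and all 6 libraries share this genotype, age and tissue. They form 3 groups of 2, the target libraries, the miRNA libraries and the input libraries made from whole lysate. The target side is 1 peak list for the series with no value per library, so a peak has no replicate check, height or depth here. Whether it was called against the input is not given in the sources used here. Among marker genes, 3 of 5 glutamatergic genes held a peak, with Slc17a6, the VGLUT2 gene itself, at 0. The counts were 0 of 5 for inhibitory neurons, 1 of 5 for astrocytes (Slc1a2, 45 peaks) and 0 of 5 for microglia. The oligodendrocyte marker Mbp held 2 peaks, while Mog, Mag and Mobp held 0. The part of glial RNA in the peaks described here was not tested.

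Ubiquitin is a small protein that is attached to other proteins by a relay of an activating enzyme, a conjugating enzyme and a ligase, often as a signal for destruction by the proteasome. Most Ube2 genes encode conjugating enzymes. Fbxo and Fbxl genes encode F-box proteins, many of which bring substrates to cullin ligases through the adaptor Skp1, while most Trim genes encode RING-type ligases. Most Usp genes belong to the largest family of deubiquitinases, enzymes that take ubiquitin off again. In neurons this system sets the amount of synaptic and growth cone proteins.

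The first question was whether these genes carried AGO2 target peaks more or less often than others. At least 1 peak was found in 11 of 218 members (5.05%, exact 95% interval 2.55 to 8.85), against 4.43% of all nuclear protein-coding genes (970 of 21887, members included). The members' share lay near this background, and the background lay within its interval. Members were longer than other genes, with a median span of 24.97 kb against 17.2 kb for all protein-coding genes, and long spans held peaks more often. In the longest of 10 span classes (over 108526 bp) 14.5% of all genes had a peak, against 0.365% in the shortest. If members carried peaks at the rate of all genes in their own span class, 10.3 of them would have one, close to the 11 seen. Expression was not measured here, so the members were not compared with genes of equal expression.

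**Figure D1:**
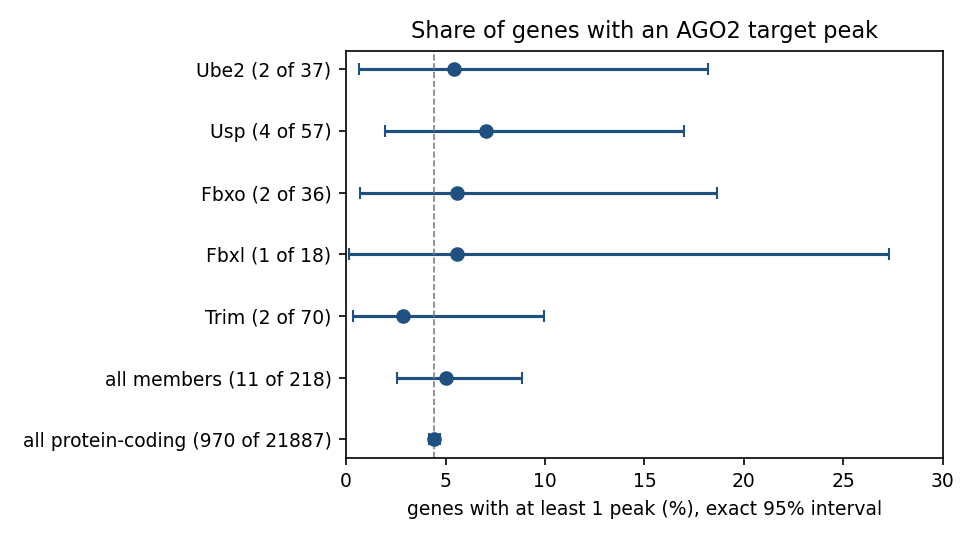
Share of genes with at least 1 peak (x axis, percent) in each of the 5 families, in all 218 members and in all 21887 nuclear protein-coding genes. Points are shares, bars exact 95% binomial intervals, and the dashed line marks 4.43%, which lies inside the interval of every family.

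By family, peaks were found in 2 of 37 Ube2 genes (5.41%, exact 95% interval 0.661 to 18.2) and in 4 of 57 Usp genes (7.02%, 1.95 to 17.0). They were found in 2 of 36 Fbxo genes (5.56%, 0.680 to 18.7), 1 of 18 Fbxl genes (5.56%, 0.141 to 27.3) and 2 of 70 Trim genes (2.86%, 0.348 to 9.94). All 5 intervals overlap and hold the background of 4.43%, so with families of this size no family stood apart. The counts given by the span classes were 1.75 for Ube2, 3.51 for Usp, 1.40 for Fbxo, 1.01 for Fbxl and 2.61 for Trim, each within 1 gene of the count seen. Trim genes, with the lowest share, were also the shortest, with a median span of 15.9 kb against 47.4 kb for Usp genes, which had the highest. The Usp share includes genes whose only peak lay on the strand opposite to the gene. Without such peaks 2 of 57 Usp genes kept a peak, beside 2 of 37 Ube2 and 2 of 36 Fbxo genes.

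**Figure D2:**
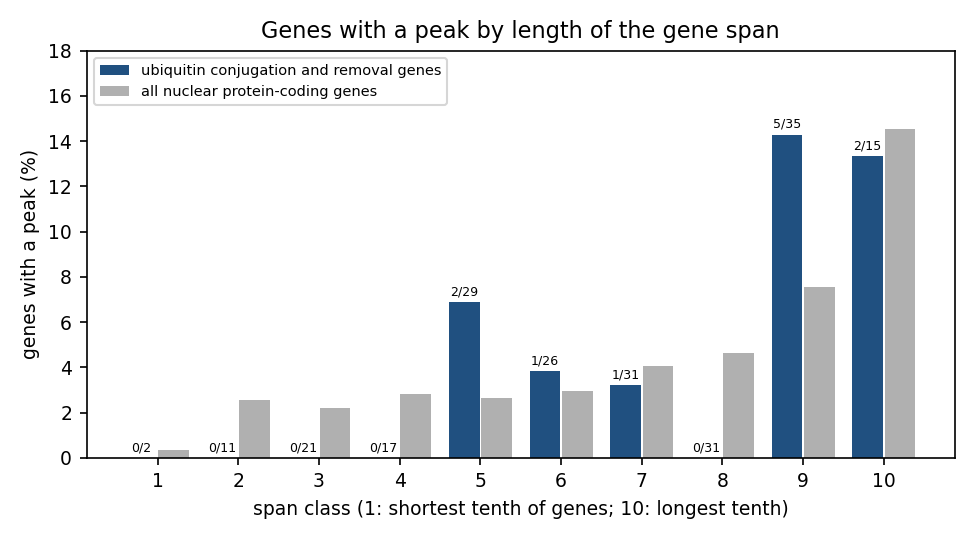
Percent of genes with a peak (y axis) in 10 classes of gene span of equal size (x axis, short to long), for the 218 members and for all nuclear protein-coding genes. Numbers above the bars give members with a peak over members in the class. Of the 11 members with a peak, 7 lie in the 2 longest classes, where the grey bars are highest too.

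The 11 genes with a peak were then sorted by the strand of their peaks. The RefSeq promoter table gives the strand of 168 of the 218 members. Of the 14 member peaks in genes with a given strand, 11 lay on the strand of their gene (78.6%, exact 95% interval 49.2 to 95.3), against 87.1% of 1263 such peaks in all protein-coding genes. The 11 same-strand peaks belong to 6 genes, Ube2g1, Ube2k, Usp32, Fbxo9, Fbxl16 and Trim9. Fbxl16 held 5 of them and Usp32 held 2. The interval takes the 14 peaks as independent, so it can be too narrow. Usp25, Usp40 and Trim37 each held only a peak on the opposite strand. The strand of Fbxo45 and Usp22 is not in the table used. With opposite-strand peaks left out, 8 members (3.67%) kept a peak, against 3.83% of all protein-coding genes, again near the background.

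Both Ube2 genes with a peak had it near the end of the span. Ube2g1, a conjugating enzyme related to the one that serves protein disposal at the endoplasmic reticulum (chromosome 11, 72607261 to 72686481, plus strand), held 1 peak of 65 nt at 72683735 to 72683799. Its midpoint lay 96.6% of the way along the 79.2 kb span and 2.71 kb from the end. Ube2k, which builds ubiquitin chains and is known to bind huntingtin (chromosome 5, 65537245 to 65598989, plus strand), held 1 peak of 43 nt at 65595096 to 65595138. It lay at 93.7% of the span, 3.87 kb from the end. Both peaks were on the strand of the gene and in no other gene's span. The other 35 Ube2 genes, among them Ube2a, Ube2b, Ube2c, Ube2cbp and Ube2d1, held none. Ube2e2 had the longest span of these, 320.7 kb.

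The Usp genes had the most members with a peak, 4 of the 11, where the span classes gave 3.51 for these 57 genes. With opposite-strand peaks left out, 2 Usp genes kept a peak, as many as in the Ube2 and Fbxo families. Usp32, a deubiquitinase tied to the Golgi and endosomes (chromosome 11, 84984437 to 85140281, minus strand), held 2 peaks on its own strand, of 43 nt at 84984579 to 84984621 and of 36 nt at 84984651 to 84984686. They lay 29 bases apart, with midpoints 163 and 231.5 bases from the end of a span of 155.8 kb, and covered 73.1% of the 108 bases they stretch over. Usp22, the deubiquitinase of the SAGA chromatin complex (chromosome 11, 61151781 to 61175059), held 1 peak of 84 nt on the minus strand at 61153099 to 61153182. Read along the strand of the peak it lay at 94.2% of the span. The end of Tnfrsf13b, which runs on the plus strand, covers the midpoint of this peak too, and the peak is opposite in strand to that gene.

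The peaks of Usp25 and Usp40 were narrow and on the other strand. Usp25 (chromosome 16, 77013684 to 77116783, plus strand) held a minus-strand peak of 28 nt at 77031073 to 77031100, 16.9% of the way along the gene and 85.7 kb from its end. Usp40 (chromosome 1, 87945119 to 88008582, minus strand) held a plus-strand peak of 25 nt at 87955017 to 87955041, at 84.4% of the span. Both peaks were under 30 nt wide, on the opposite strand, outside the last 10% of the span and in no other gene's span. The remaining 53 Usp genes, Usp1 to Usp5 among them, held no peak, and the longest of these were Usp29 (236.7 kb) and Usp34 (187.4 kb).

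Among the F-box genes, Fbxl16 carried the most peaks of any member. This leucine-rich repeat F-box gene (chromosome 17, 25808461 to 25821262, plus strand) held 5 peaks, all on its own strand and in no other span, and 66 of all protein-coding genes held as many or more. Its span of 12.8 kb is the shortest of the 11. The last 3 peaks, of 35, 43 and 27 nt, lay at 25821062 to 25821096, 25821134 to 25821176 and 25821230 to 25821256. They filled 53.8% of 195 bases, with gaps of 37 and 53 bases, and the nearest midpoint was 19 bases from the end of the gene. The other 2 lay further upstream. A peak of 58 nt stood at 25816766 to 25816823, at 65.1% of the span, and one of 231 nt, the widest of the 16, at 25817841 to 25818071, at 74.2%. All 5 together covered 394 bases, 3.08% of the span. Of the other 10 members with a peak, Usp22 had the highest covered share, 0.361%.

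Fbxo45, the F-box protein that forms a neuronal ligase with Mycbp2 (chromosome 16, 32230112 to 32247025), held 1 peak of 55 nt on the minus strand at 32232506 to 32232560. Read along the strand of the peak it lay at 85.7% of the span and 2.42 kb from the end. Mycbp2, its partner, also held 1 peak, of 69 nt, 0.202 kb from the end of its span read the same way. Fbxo9, a substrate receptor of cullin ligases (chromosome 9, 78081499 to 78109065, minus strand), held 1 peak of 66 nt on its own strand at 78081854 to 78081919, at 98.6% of the span. No peak fell in the other 34 Fbxo genes, which include Fbxo2 to Fbxo6, or in the other 17 Fbxl genes, which include Fbxl2 to Fbxl6 and Fbxl17, the longest member at 458.2 kb.

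Of the 70 Trim genes, Trim9 alone held a peak on its own strand. Trim9, a brain-enriched ligase that acts in netrin-guided axon branching (chromosome 12, 70244533 to 70347869, minus strand), held a peak of 85 nt at 70244861 to 70244945, at 99.6% of a span of 103.3 kb. Trim37, a ligase that limits centrosome assembly (chromosome 11, 87126790 to 87250874, plus strand), held a minus-strand peak of 32 nt at 87230730 to 87230761, at 83.8% of its span. The same peak lies in Ppm1e, a phosphatase gene on the minus strand whose span overlaps that of Trim37. There it is on the strand of the gene, at 97.1% of the span. The 68 Trim genes with no peak include Trim2 and Trim3, both known from neurons, and Trim5, Trim6 and Trim7.

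**Figure D3:**
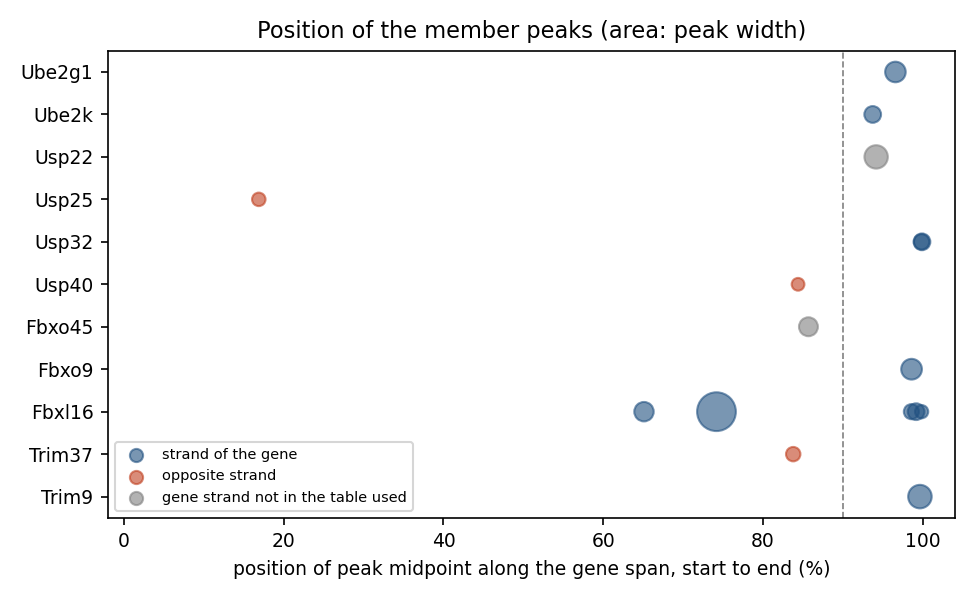
Position of the 16 peaks along their gene spans (x axis, percent from start to end) for the 11 members with a peak. Point area is proportional to peak width (25 to 231 nt), colour gives the strand relative to the gene, and the dashed line marks the start of the last 10%. The 3 opposite-strand peaks, in Usp25, Usp40 and Trim37, all lie left of the line, and 9 of the 11 same-strand peaks lie right of it.

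Of all 16 peaks, 10 were centred in the last 10% of the span (62.5%, exact 95% interval 35.4 to 84.8), against 64.6% of 1780 pairs of a peak and a protein-coding gene. Fbxl16 held 3 of these 10 peaks and Usp32 held 2. The interval takes the peaks as independent, so it can be too narrow. None of the 16 peaks lay in the first 10%, against 3.09% for all. The median distance from the end was 1.89 kb in members and 1.55 kb in all protein-coding genes. Within 500 bases of the end lay 7 of 16 (43.8%), against 27.5% for all, and 5 of these 7 are the peaks of Fbxl16 and Usp32, so they are not 7 independent genes. Counted by gene, 7 members (3.21%) had a peak in the last 10% of the span, against 2.85% of all protein-coding genes. These shares do not measure how many peaks lie in 3′ untranslated regions, because no transcript models were used.

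Width and position were then set against strand, first in the members and then in the whole list. The 11 same-strand peaks of members had a median width of 43 nt (27 to 231), 1 of them was under 30 nt, and 9 lay in the last 10% of the span. The 3 opposite-strand peaks were 25, 28 and 32 nt wide, with none in the last 10%. Over all protein-coding genes with a given strand, 69.9% of 163 opposite-strand peaks were under 30 nt and 20.2% lay in the last 10% of the span, with a median width of 26 nt. Of 1100 same-strand peaks, 9.55% were under 30 nt and 72.7% lay in the last 10%, with a median of 63 nt. Peaks in several spans were then left out, since such a peak can be opposite to 1 gene and on the strand of another, as in Trim37 and Ppm1e. Of the 119 opposite-strand peaks left, 90.8% were under 30 nt and 8.40% lay in the last 10% of the span, with a median width of 25 nt. Of the 970 same-strand peaks left, 10.2% were under 30 nt and 74.8% lay in the last 10%, with a median of 61 nt. The peaks of Usp25 and Usp40 share the width and placement of the opposite-strand group. This comparison was made after the values were seen and no test was run on it.

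Over all strands, the width of peaks in members had a median of 43 nt (25 to 231), against a median of 58 nt (17 to 407) for the 1680 peaks in protein-coding genes. The middle of the distribution ran from 34.2 to 65.2 nt (quartiles) in members and from 38 to 88 nt in all. Peaks of at least 100 nt made up 1 of 16 (6.25%) against 18.5%, and peaks under 30 nt 3 of 16 (18.8%) against 16.6%. With 1 value per gene, the mean over its peaks, the members' median was 55 nt. With 16 peaks, 7 of them from Fbxl16 and Usp32, the lower median is a description only.

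**Figure D4:**
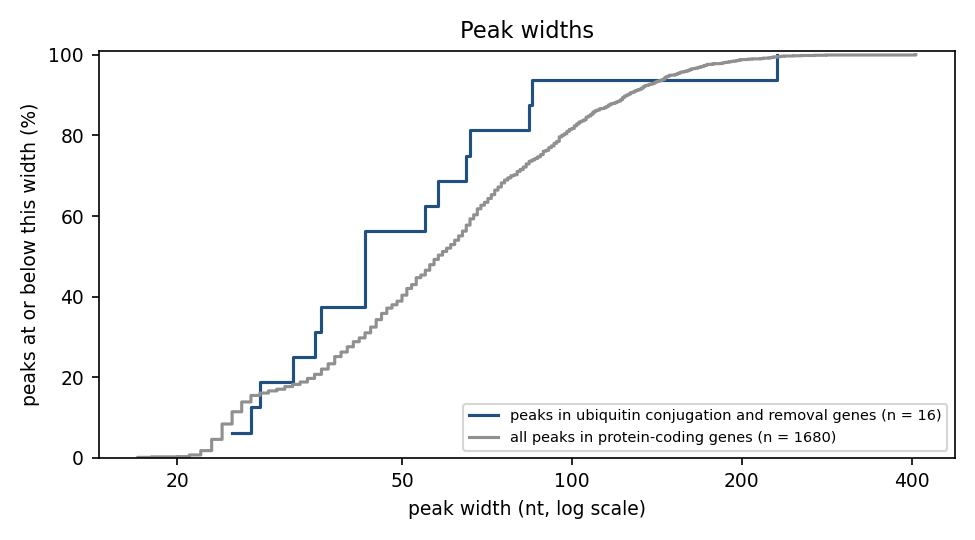
Cumulative percent of peaks (y axis) at or below a given width (x axis, nt, log scale) for the 16 peaks in ubiquitin conjugation and removal genes and for the 1680 peaks in all protein-coding genes. The members' curve passes the middle at 43 nt, against 58 nt for all, and has 1 peak (231 nt, in Fbxl16) above 100 nt.

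Most members with a peak had exactly 1. This held for 9 of 11 members (81.8%), against 67.6% of the 970 protein-coding genes with a peak. Usp32 held 2 and Fbxl16 held 5. At least 2 peaks were thus found in 2 of 218 members (0.917%, exact 95% interval 0.111 to 3.27), against 1.43% of all protein-coding genes. At least 5 were found in 1 of the 11 members with a peak, against 66 of 970 genes (6.80%).

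Just outside the spans, 13 peaks lay within 10 kb of 6 members, and each of the 13 lay in the span of another gene. The closest was 258 bases from Usp42, in Cyth3. Next came a peak 693 bases past the end of Usp40, on the opposite strand, in Dgkd. The other members were Ube2n (4 peaks in Nudt4), Trim41 (1 in both Rack1 and the small RNA gene Snord95), Usp11 (1 in Cdk16) and Fbxl18 (5 in Actb). Some of the Actb peaks also lay in Gm38733. None of the 13 lay past the end of a member with a given strand on that gene's own strand. Peaks just outside spans were not counted for all protein-coding genes, so these counts have no background beside them. No peak touched any of the 211 promoter windows that the RefSeq table gives for 168 members. Promoter windows of other genes were not counted, so this is not shown to be particular to the members.

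The rest of the ubiquitin pathway was described through 9 lists of genes, to be read against 4.43% of all protein-coding genes with a peak and against the span classes. Pja2, a RING ligase that targets regulatory subunits of protein kinase A, held 4 peaks, all on its own strand and within the last 2.32 kb of the span. Ubr3 held 2 and Mycbp2 held 1, which makes 3 of 27 genes in the list of RING and other ligases. The HECT ligase genes Hectd4 and Arel1 held 1 each. Among other deubiquitinases 2 of 27 held a peak, Uchl1, one of the most abundant proteins of neurons, with a peak of 149 nt 0.118 kb from the end of its span, and the nuclear enzyme Bap1 with a peak of 79 nt. Skp1, the adaptor that F-box proteins bind, was the 1 of 15 cullin-related genes with a peak (37 nt, 0.758 kb from the end). Of 9 activating enzyme genes, Uba2, a subunit of the SUMO activating enzyme, held an opposite-strand peak of 24 nt at 2.95% of its span. The counts given by the span classes were 2.00 for RING and other ligases and 1.17 for other deubiquitinases. They were 0.615 for cullin-related genes and 0.492 for activating enzymes.

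In 4 of the lists no gene held a peak. These were 0 of 31 proteasome genes (exact 95% interval up to 11.2%), 0 of 16 SUMO and NEDD8 genes (up to 20.6%), 0 of 10 F-box genes of the WD40 class and their relatives (up to 30.8%) and 0 of 4 ubiquitin genes (up to 60.2%). All of these intervals include 4.43%, so at these list sizes a lower share than the background was not detectable. The span classes gave 1.00 proteasome genes, 0.788 SUMO and NEDD8 genes, 0.677 F-box genes of the WD40 list and 0.102 ubiquitin genes.

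The miRNA libraries gave a second readout of the same loci, because 4 members enclose miRNA hairpins. The libraries held 66854 and 75658 counts. Fbxo6, Usp29, Ube2g2 and Trim80 together enclose 4 hairpins with 7 listed mature miRNAs, of which 3 had a count in some library and 2 in both. The mature sequences that were counted, and the other arm of the most counted hairpin, are shown from RefSeq (GRCm38.p6), 5′ to 3′, with the seed (bases 2 to 8), the stretch that pairs with targets, in capitals.
miR-3099-3p: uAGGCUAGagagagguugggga
miR-3099-5p: cCAGCUUCcuuccagcccuug
miR-3968: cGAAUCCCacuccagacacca
miR-1930-5p: aCCUCCAUaguaccugcagcgu

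miR-3099-3p lies in Mir3099 (chromosome 7, 6803587 to 6803670, plus strand), within Usp29 and on the strand of that gene. Usp29 is an imprinted deubiquitinase gene next to Peg3. miR-3099-3p had 28 counts in replicate 1 and 37 in replicate 2, which is 0.0419% (exact 95% interval 0.0278 to 0.0605) and 0.0489% (0.0344 to 0.0674) of the library. The 2 intervals overlap, and the mean was 0.0454% ± 0.00497 (SD, n = 2). It ranked 178 among 554 miRNAs with a count. The other arm of the hairpin, miR-3099-5p, had 0 counts in both libraries, for which the exact 95% interval reaches 0.00552% in replicate 1 and 0.00488% in replicate 2. None of the other listed mouse miRNAs in the table shares its seed, AGGCUAG. Usp29 itself held no target peak along 236.7 kb.

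The remaining hosted miRNAs were at or near the limit of detection. miR-3968, in Trim80 (chromosome 11, 115447961 to 115448060) but on the opposite strand, had 2 and 3 counts. miR-1930-5p, in Ube2g2 (chromosome 10, 77641224 to 77641307), had 1 count in replicate 1 and 0 in replicate 2, and miR-1930-3p had 0 in both. Both arms of miR-7022, in Fbxo6 (chromosome 4), had 0 counts in both libraries. Trim80, Ube2g2 and Fbxo6 held no target peak. Counts include duplicate reads, which the intervals and limits take as independent, so these can be too narrow even for counting error. They do not cover variation between libraries.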

How the data were processed

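The deposited peak list gives position and strand for 2197 peaks, and the authors' score is 0 for every one. The miRNA files hold whole-number counts as deposited, per mature miRNA and not normalized by the authors; the name given to them says that duplicates were kept. Per the submitters' processing notes the build is mm10, and the tools, with no role stated, include Bowtie2 2.4.2 and STAR 2.5.2a, UMI-tools and cutadapt 2.10, deepTools 3.1.3 and DESeq2 1.36.0. Of the peak caller and any pooling, nothing is stated there. The labels do not say whether replicates are separate animals.

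Gene spans came from RefSeq on GRCm38.p6, and gene strands from its promoter table. A peak was credited to every span that held its midpoint. Position was read along the strand of the gene, or of the peak where the gene's was not given. Assignment was checked on 200 planted peaks, all recovered. Shares have exact (Clopper-Pearson) 95% intervals (scipy 1.17.1). Span classes are 10 groups of equal size. All 163 genes of the pathway lists matched, Skp1a under the symbol Skp1. From the HECT ligase and oligodendrocyte lists 1 gene each is not reported here, for reasons unrelated to its value; no share is therefore given for these lists or for all lists together, and the other lists are as first written. No test between groups was run, because the peak list has no values per library. Members and lists were chosen with earlier results of these data known, and the lists were written from general knowledge. All members with a peak are named, with up to 5 per family without one and up to 4 per list; the longest genes without a peak and those with peaks just outside were named after their values were seen. No genome sequence was used, so the planned search for seed matches in peaks was not run.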

Additional observations from a re-analysis of the deposited data

How the results depend on the processing

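Of 38 alternatives, 35 left their result within 1.5 times its value and, for shares, within its interval. The share of members with a peak was 5.05% by midpoint, by any overlap, by whole peaks and without small noncoding RNA peaks. The same rules gave 4.43%, 4.44%, 4.42% and 4.3% of all genes, in that order. For symbols whose prefix is followed by a number it was 5.06% (4.43% of all genes). It was 4.13% with peaks in 1 gene span only (3.71% of all genes) and with peaks of at least 30 nt (3.39% of all genes). Without opposite-strand peaks it was 3.67% (3.83% of all genes). The share was 3.21% with peaks in the last 10% of the span only (2.85% of all genes) and 0.917% with at least 2 peaks per gene (1.43% of all genes), since these rules ask for more. For Usp genes it was 3.51% with peaks of at least 30 nt (3.39% of all genes), because Usp25 and Usp40 drop out. The count given by span classes was 10.9 with 5 classes and 10.1 with 20. Joining peaks within 100 bases left 13 of 16. The share of peaks in the last 20% of the span was 81.2% (71.3% for all genes), in the last 5% it was 50% (56.3%), and with 1 value per gene, its median peak, 63.6% lay in the last 10% (57.5%). Members thus lay above all genes under some of these rules and below under others. The share of counts of miR-3099-3p was 0.0419% to 0.0489% when either library was left out, an alternative added after seeing the data. Its interval here was the mean ± SD of the 2 libraries. That range always holds both single values, so only the limit of 1.5 times could have been missed. No paired analysis was possible because the peak list carries no replicates.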
